A study of Rattus norvegicus with 8 samples.

Results

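The genes described here encode the machinery of oxidative phosphorylation: the subunits of respiratory complexes I to IV and of the ATP synthase, with a few assembly factors and cytochrome c. They were taken from the deposited expression table by gene symbol, as rows starting with Ndufa, Ndufb, Ndufc, Ndufs or Ndufv, the 4 Sdh subunit genes, Uqcr genes, Cyc1, Cycs, Cox5 to Cox8 genes, Atp5 genes and rows starting with Mt-. The symbol pattern does not match Cox4i1, Cox4i2 and Atpif1, which belong to the same machinery, stand in the table and are described apart. The rule found 97 of 13536 rows, of which 85 belong to nuclear genes and 12 to protein-coding genes of the mitochondrial genome. No row has the symbol Mt-nd4, a further such gene, so the mitochondrial set is not complete. The 97 rows carry 96 different symbols, because Cox6b1 stands on 2 rows. Cytochrome c1 (Cyc1) and cytochrome c (Cycs) are counted with complex III, and Ndufa4 and its paralog Ndufa4l2, named for complex I but known as complex IV-associated proteins, with complex IV. No measured level was used to choose the rows.

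Electrons from NADH enter the respiratory chain at complex I and those from succinate at complex II. They pass through coenzyme Q, complex III and cytochrome c to complex IV, which hands them to oxygen, and the protons pumped on the way drive the ATP synthase, also called complex V. The mitochondrial genome encodes a few core subunits of complexes I, III, IV and V, and nuclear genes encode the remainder and all of complex II. The nucleus pulposus is the gelatinous core of the intervertebral disc. It has almost no blood vessels, and its cells live at low oxygen and rely mainly on glycolysis.

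RNA was sequenced from primary nucleus pulposus cells of Wistar rats, grown out of explanted tissue. In 4 libraries the cells carried a lentiviral short hairpin RNA against HuR (ShHuR). HuR is the product of Elavl1 and binds AU-rich elements in many mRNAs. In the other 4 they carried the PLKO.1 hairpin with no target (ShCTR). All cells of both groups were held at 1% oxygen for the last 24 h, so no normal-oxygen level is at hand, and the hairpin lowers the target without deleting it. The series compares the 2 groups to find transcripts that depend on HuR in hypoxic disc cells. The labels do not say that libraries within a group are separate animals or cultures, so every p-value here reflects the spread between samples alone, which may be technical.

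The deposited values are gene counts that were divided by 1 factor per library, called normalized counts here. Recovered reads ran from 6797360 to 8038192 in ShHuR libraries and from 9096738 to 12179515 in ShCTR libraries. Elavl1 had 63.8, 6.1, 8.4 and 49.6 normalized counts in ShHuR replicates 1 to 4, against 554.8, 699.3, 582.5 and 644.3 in ShCTR replicates 1 to 4. The target was thus lower in every ShHuR library than in any ShCTR library, with a log2 fold change of −4.84 (SE 0.55, adjusted p = 0.00663, limma with the replicate block). Of the nucleus pulposus markers, 14 had a row and 13 were tested. Sox9 had between 8.1 and 44.8 normalized counts and Col2a1, the collagen of the disc core, at most 21.0, so the tissue's defining collagen was near absent. Other markers were higher: Acan ran from 14.2 to 449.3, Ncam1 from 663.3 to 2368, Cdh2 from 119.6 to 1333 and Slc2a1 from 3712 to 30665.

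Differences were tested with limma on log2(normalized count + 1), with Benjamini-Hochberg adjustment over 11847 rows that reached 10 normalized counts in at least 4 libraries. Without a block for replicate number, 0 of these rows passed an adjusted p of 0.05, and 978 had an unadjusted p under 0.05. Same-numbered libraries of the groups deviated together, though replicates 2 and 3 were poorly told apart. With replicate number as a block 1802 rows passed, or 15.2% of those tested. The fit without the block, in which 0 rows passed, was set as the main one, because no label says that the numbers mark pairs. The fit with the block is an alternative to it. It is used for every fold change, standard error and adjusted p of a single gene below. The words "rose" and "fell" refer to it alone and not to the main fit. A log2 fold change is ShHuR over ShCTR, and on the log2(value + 1) scale it understates the change of low genes.

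Most nuclear genes of oxidative phosphorylation lay slightly lower in ShHuR cells, but few passed the test. Of 82 nuclear rows tested, 4 fell and 1 rose, against 8.05% of all tested rows that fell and 7.16% that rose, so the shares of members were below the background in both directions. The genes that fell were Ndufa4l2, Cox5b, Atp5g1 and Ndufs1, and the gene that rose was Uqcrfs1. Without the block the adjusted p of these 5 ran from 0.317 to 0.749, and 3 nuclear members had an unadjusted p under 0.05. With the block, 17 nuclear members had an unadjusted p under 0.05 below 0 and 5 above it. The log2 fold change was below 0 for 63 nuclear members and above 0 for 19, with a median of −0.17 against 0.01 over all tested rows. When libraries were rescaled by the total of rows not encoded in mitochondria, the median over all rows became 0.14 and that of the nuclear members −0.05. The members lay at −0.18 relative to all rows under either scaling. Rescaling divides each library by 1 factor and shifts all rows nearly alike, so that gap could not change and is no check. Mitochondrially encoded rows held at most 0.595% of a library's counts, so the rescaling is close to scaling by the whole library total. Under that scaling 1335 of all tested rows rose and 705 fell, against 848 and 954 with the deposited scaling.

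Of the 11 mitochondrially encoded rows tested, 0 passed the threshold, with or without the block, in edgeR or in DESeq2, and 0 had an unadjusted p under 0.05 in limma with the block. Their median log2 fold change was −0.08, with 7 below 0 and 4 above. Rows that were not tested for low counts were Ndufs5, Ndufaf2, Cox6b2 and Mt-nd4l. Their highest values over the 8 libraries were 10.3, 21.2, 10.6 and 15.5 normalized counts. In bulk RNA a lower level can come from fewer cells that express a gene or from less RNA per cell, and these cannot be told apart.

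**Figure D1:**
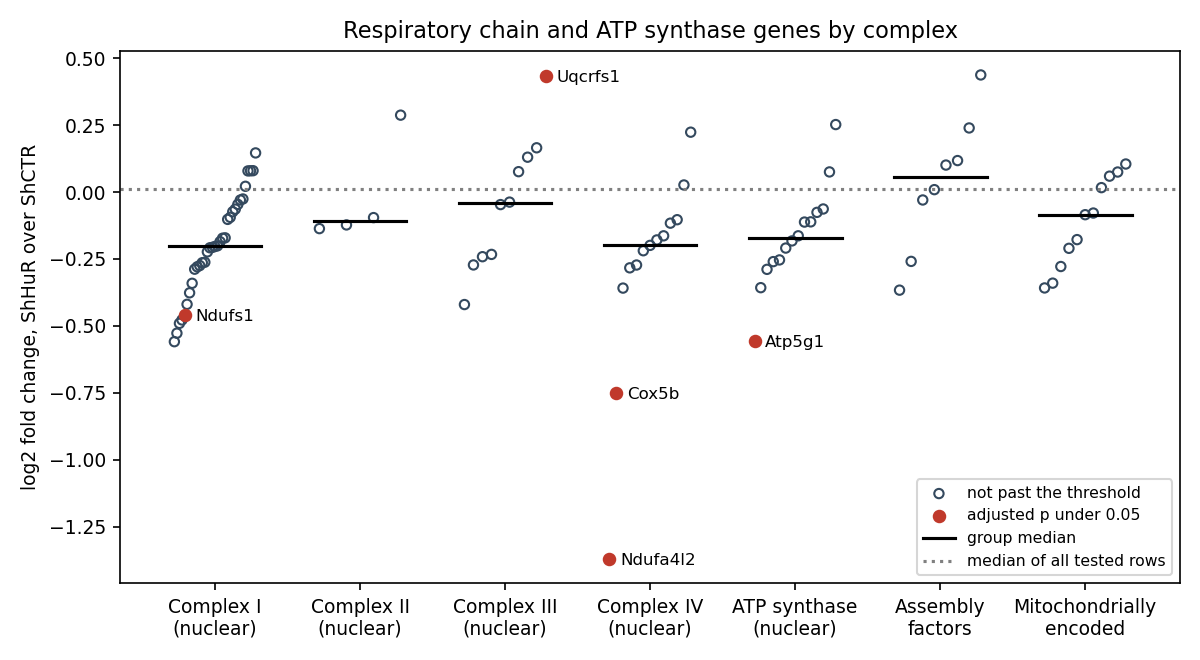
Log2 fold change (ShHuR over ShCTR, limma with the replicate block) of each tested gene, grouped by complex, with filled points for adjusted p under 0.05. Black bars are group medians and the dotted line is the median of all tested rows. Medians lie between −0.20 (complexes I and IV) and 0.05 (assembly factors), and only 5 genes pass the threshold.

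Complex I, the NADH dehydrogenase, was measured by 34 nuclear rows, 33 of them tested, of which 1 fell and 0 rose. The median log2 fold change was −0.20, with 28 below 0, and it was −0.08 under rescaling by rows not encoded in mitochondria. Ndufs1 (ENSRNOG00000011849), the largest iron-sulphur subunit of the electron-accepting arm, had 823.6, 730.2, 625.7 and 732.2 normalized counts in ShHuR replicates 1 to 4, against 1224.5, 948.3, 950.5 and 889.0 in ShCTR replicates 1 to 4. Every ShHuR value lay below every ShCTR value. The log2 fold change was −0.46 (SE 0.10, adjusted p = 0.028, limma with the block), and rescaling by rows not encoded in mitochondria left −0.33 with an adjusted p of 0.066. Leaving out pair 2, 3 or 4 also raised the adjusted p in limma with the block, to 0.116, 0.0835 and 0.0955.

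The other core subunits of complex I, which carry the flavin, iron-sulphur clusters and quinone site, did not pass. Ndufs7, an iron-sulphur subunit near the quinone site, had a log2 fold change of 0.08. Over the 7 nuclear core subunits the median was −0.03. Over the 26 accessory subunits tested it was −0.21, with 24 below 0 and 0 called in either direction. This grouping was made after the values were seen and has no test.

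The lowest complex I values were those of Ndufv3, an accessory subunit of the NADH-binding tip, at −0.56 (SE 0.17, adjusted p = 0.0675, limma with the block), and Ndufb3, a small membrane-arm subunit, at −0.53 (SE 0.17, adjusted p = 0.0715). Ndufv3 had 624.5, 248.4, 202.6 and 292.7 normalized counts in ShHuR replicates 1 to 4 and 589.4, 357.3, 402.7 and 513.5 in ShCTR replicates 1 to 4. It was higher in ShHuR in pair 1 and lower in the other 3 pairs. Ndufb3 was lower in all 4 pairs, with 47.8 ± 12.3 normalized counts in ShHuR and 68.9 ± 15.9 in ShCTR libraries. Ndufa6, a subunit of the LYR family, is named because the authors' deposited table calls it, with an adjusted p of 0.0491. Its adjusted p was 0.0561 in limma with the block and 0.0453 in DESeq2 with the block. The 4 ShHuR values of Ndufc1, chosen here after its values were seen, also lay below the 4 ShCTR values, at −0.42 (adjusted p = 0.110, limma with the block). Of the nuclear members, 3 had such separated groups (Cox5b, Ndufs1 and Ndufc1), all with ShHuR below, against 3.09% of all tested rows. None had ShHuR above in every library, against 2.52%.

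Complex II, succinate dehydrogenase, links the tricarboxylic acid cycle to the chain, and 0 of its 4 genes passed. Sdha, the flavoprotein, averaged 1528 ± 402 normalized counts in ShHuR and 1670 ± 369 in ShCTR libraries (SD, n = 4 each), a log2 fold change of −0.14. Sdhb, the iron-sulphur subunit, stood at −0.12, and Sdhc, a membrane anchor, at −0.10. Both turned to the other sign, 0.0009 and 0.03, under rescaling by rows not encoded in mitochondria. Sdhd, the other membrane anchor, had 1002.9, 558.5, 557.8 and 755.5 normalized counts in ShHuR replicates 1 to 4, against 786.4, 469.4, 481.2 and 598.6 in ShCTR replicates 1 to 4. It was higher in ShHuR in all 4 pairs although the groups overlap. Its log2 fold change was 0.29 (SE 0.09, adjusted p = 0.0732, limma with the block), and rescaling by rows not encoded in mitochondria brought the adjusted p to 0.0312.

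In complex III, which passes electrons from coenzyme Q to cytochrome c, 1 of 10 tested rows rose and 0 fell. Uqcrfs1 (ENSRNOG00000018281), the Rieske iron-sulphur protein, had 2068.1, 1432.1, 1499.9 and 1321.6 normalized counts in ShHuR replicates 1 to 4, against 1486.9, 969.5, 1107.6 and 1101.4 in ShCTR replicates 1 to 4. The ShHuR library was higher in every pair, and the groups overlap only through ShCTR replicate 1. The log2 fold change was 0.43 (SE 0.10, adjusted p = 0.0295, limma with the block). Without pair 2, 3 or 4 the adjusted p was 0.149, 0.0776 and 0.0967, with log2 fold changes between 0.39 and 0.49.

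The larger subunits of complex III were all higher in ShHuR in all 4 pairs, although only Uqcrfs1 passed the test. The log2 fold change was 0.17 for Uqcrc1 and 0.08 for Uqcrc2, the core proteins, and 0.13 for Cyc1. Uqcrc1 had 1552.9, 1185.6, 1277.4 and 1322.6 normalized counts in ShHuR replicates 1 to 4 and 1389.8, 1054.4, 1088.4 and 1233.1 in ShCTR replicates 1 to 4. The 5 small subunits, by contrast, were all below 0, with a median of −0.24 against 0.15 for the 4 larger ones. Uqcr10 stood at −0.42 (adjusted p = 0.0716, limma with the block) and Uqcr11 at −0.27. This division into large and small subunits was drawn after the values were seen, and the difference was not tested. Over all tested rows, 22.3% were higher in ShHuR in every pair and 19.4% lower in every pair. Among 82 nuclear members the counts were 10 and 23. Cycs, whose sequence has many processed pseudogenes in mammals, had only 9.1 to 37.4 normalized counts per library, and its value is uncertain.

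Complex IV, cytochrome c oxidase, held the 2 members with the lowest log2 fold changes. Of 13 nuclear rows tested 2 fell and 0 rose, and the median log2 fold change was −0.20. The share called was 15.4%, close to the 15.2% of all tested rows. It was 3.03% in complex I, 10.0% in complex III and 7.14% in the ATP synthase. Ndufa4l2 (ENSRNOG00000031851), a target of the hypoxia-inducible factor HIF-1 and known to lower oxygen use in hypoxic cells, had 1230.8, 1589.6, 1204.3 and 907.4 normalized counts in ShHuR replicates 1 to 4. In ShCTR replicates 1 to 4 it had 1583.1, 5138.2, 5437.4 and 2162.4. The ShCTR libraries thus differed among themselves, whereas the ShHuR libraries stayed close together, and the groups overlap through ShCTR replicate 1. The means were 1233 ± 279 in ShHuR and 3580 ± 1990 in ShCTR libraries (SD, n = 4 each), a log2 fold change of −1.37 (SE 0.26, adjusted p = 0.0194, limma with the block). Within pairs 1 to 4 the log2 differences were −0.36, −1.69, −2.17 and −1.25. Leaving out pair 2 or 4 gave an adjusted p of 0.0962 and 0.0967.

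Its paralog Ndufa4, present in complex IV under ordinary conditions, had the other sign. Ndufa4 had 1001.4, 748.3, 725.9 and 923.6 normalized counts in ShHuR replicates 1 to 4, against 875.2, 667.1, 574.3 and 805.6 in ShCTR replicates 1 to 4, higher in all 4 pairs with overlapping groups. Its log2 fold change was 0.22 (SE 0.09, adjusted p = 0.132, limma with the block). Ndufa4l2 made up 55.1%, 68.0%, 62.4% and 49.6% of the normalized counts of both genes in ShHuR replicates 1 to 4, against 64.4%, 88.5%, 90.4% and 72.9% in ShCTR replicates 1 to 4. That share was lower in every pair, and its means were 58.8 ± 8.1% in ShHuR and 79.1 ± 12.5% in ShCTR libraries. The widest 95% Wilson margin was 2.5 percentage points, which covers counting error only. The share is a description, since it holds a gene already called, and it is not corrected for transcript length.

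Cox5b (ENSRNOG00000016660), the zinc-binding subunit of complex IV, had 623.0, 444.4, 415.7 and 359.5 normalized counts in ShHuR replicates 1 to 4, against 857.4, 716.1, 731.4 and 738.4 in ShCTR replicates 1 to 4. The groups do not overlap. The log2 fold change was −0.75 (SE 0.12, adjusted p = 0.0128, limma with the block), and pairs 1 to 4 gave −0.46, −0.69, −0.81 and −1.04. Leaving out pair 2 or 4 gave an adjusted p of 0.0716 and 0.0776 at log2 fold changes of −0.77 and −0.65. Cox5b passed in all 8 settings of the blocked comparison that keep every library. Cox5a, which also lies on the matrix side of the complex, had a log2 fold change of −0.10 and was chosen for mention after its value was seen.

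**Figure D2:**
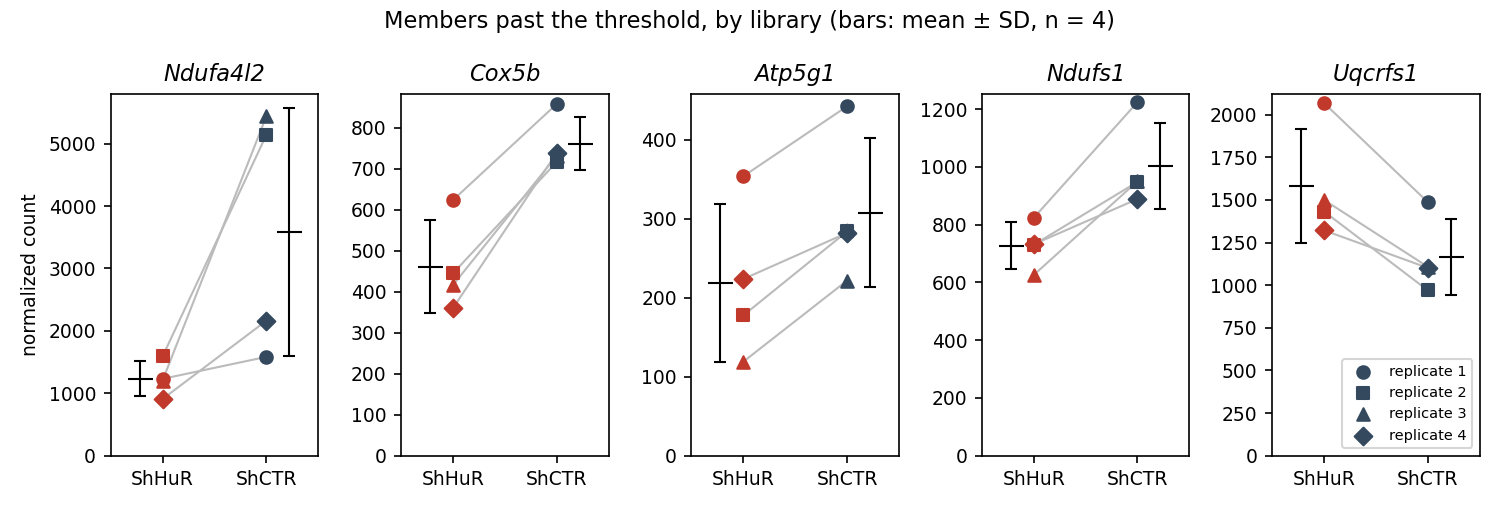
Normalized counts of the 5 members past the threshold, with lines joining libraries of the same replicate number and bars giving mean ± SD (n = 4). Ndufa4l2 is tightly grouped in ShHuR and scattered in ShCTR, Cox5b and Ndufs1 separate fully, and Uqcrfs1 is higher in ShHuR in each pair.

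The tissue-specific isoforms of complex IV among the members did not pass the test. Cox6a1, the widespread isoform, averaged 2046 ± 891 normalized counts in ShHuR and 2154 ± 671 in ShCTR libraries, and Cox6a2, the heart and skeletal muscle isoform, 60.7 ± 43.9 and 66.3 ± 33.8 (SD, n = 4 each). Their log2 fold changes were −0.12 and −0.36, and that of Cox6a1 turned to 0.0076 under rescaling by rows not encoded in mitochondria. Cox6a2 ran from 14.1 to 100.3 in ShHuR and from 33.0 to 101.4 in ShCTR libraries. Cox7a2l, a supercomplex assembly factor, stood at −0.18, and the subunit genes Cox7c and Cox8a at 0.03 and −0.20. Cox7c turned to −0.0029 under quantile normalization. The 2 Cox6b1 rows gave −0.28 and −0.27, and reads may be split between them, so both are uncertain. Cox6b2, the testis isoform, had 10.6, 7.1, 3.1 and 3.0 normalized counts in ShHuR replicates 1 to 4, against 8.4, 0.7, 0.9 and 0.9 in ShCTR replicates 1 to 4. No comparison is made at such counts. Cox7a1, Cox7a2 and Cox8b, on the list of isoforms, had no row under these symbols and could not be analysed.

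Both isoforms of complex IV subunit 4, which the symbol pattern leaves out, fell. Cox4i1 (ENSRNOG00000017817), the widespread isoform, had 3298.9, 1210.9, 959.9 and 1265.9 normalized counts in ShHuR replicates 1 to 4, against 3879.9, 2420.1, 2224.3 and 2312.0 in ShCTR replicates 1 to 4. It was lower in ShHuR in each pair, with replicate 1 highest in both groups, and the log2 fold change was −0.83 (SE 0.16, adjusted p = 0.0212, limma with the block). Cox4i2 (ENSRNOG00000007827), the isoform induced at low oxygen, had 545.5, 527.2, 576.6 and 603.6 normalized counts in ShHuR replicates 1 to 4, against 618.3, 814.3, 1433.5 and 1336.1 in ShCTR replicates 1 to 4. The groups do not overlap, and the log2 fold change was −0.82 (SE 0.18, adjusted p = 0.0291, limma with the block). Without the block the limma adjusted p was 0.628 for Cox4i1 and 0.455 for Cox4i2. With the block, leaving out pair 2, 3 or 4 ended both calls, with adjusted p of 0.104, 0.0603 and 0.106 for Cox4i1 and 0.103, 0.0810 and 0.134 for Cox4i2. Without a variance trend they were 0.0563 and 0.0694. Atpif1, the inhibitor of the ATP synthase, averaged 1226 ± 787 normalized counts in ShHuR and 1359 ± 613 in ShCTR libraries (SD, n = 4 each), a log2 fold change of −0.24 that did not pass. These 3 genes are not in the counts of members.

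Of the 14 ATP synthase rows, all tested, 1 fell and 0 rose, with a median log2 fold change of −0.17. Atp5g1 (ENSRNOG00000007235) is 1 of 3 genes that encode the same mature c subunit of the membrane rotor and differ in their import sequences. It had 354.0, 177.7, 119.1 and 223.8 normalized counts in ShHuR replicates 1 to 4, against 442.7, 284.1, 221.9 and 282.3 in ShCTR replicates 1 to 4. It was lower in ShHuR in every pair, while the groups overlap. Both libraries of pair 1 were the highest of their group. The log2 fold change was −0.56 (SE 0.13, adjusted p = 0.0342, limma with the block). Leaving out pair 2, 3 or 4 gave an adjusted p of 0.147, 0.0969 and 0.106.

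The other c-subunit genes had the opposite sign without passing. Atp5g2 had 1478.5, 791.8, 783.4 and 756.5 normalized counts in ShHuR replicates 1 to 4, against 1135.8, 637.8, 655.6 and 725.9 in ShCTR replicates 1 to 4, a log2 fold change of 0.25 (adjusted p = 0.117, limma with the block). Atp5g3 had a log2 fold change of 0.08 (adjusted p = 0.584). Both were higher in ShHuR in all 4 pairs. Summed over the 3 genes the level was 2007 ± 520 normalized counts in ShHuR and 1891 ± 420 in ShCTR libraries (SD, n = 4 each). Atp5g1 made up 12.7%, 10.1%, 7.1% and 12.5% of that sum in ShHuR replicates 1 to 4, against 17.6%, 17.1%, 13.7% and 15.9% in ShCTR replicates 1 to 4. The share was thus lower in every ShHuR library than in any ShCTR library. The widest 95% Wilson margin was 1.6 percentage points. This share was formed after the values were seen, is not corrected for length and has no test, and the 3 genes are similar in sequence, so reads may be split between them.

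Among the remaining ATP synthase genes, Atp5o, a stalk subunit, was lowest at −0.36 and Atp5i, a membrane subunit, stood at −0.26 (adjusted p = 0.126 and 0.110, limma with the block). The 5 genes of the catalytic F1 head were all below 0 with a median of −0.18 and 0 calls. Of these, Atp5b had 11847.6, 6683.6, 6329.7 and 7261.2 normalized counts in ShHuR replicates 1 to 4 and 11397.7, 7575.1, 6855.4 and 8372.6 in ShCTR replicates 1 to 4. The pair 1 libraries held the highest values of both groups. Of 8 assembly-related rows tested (Ndufaf genes, Atp5s and Atp5sl), 0 passed and the median was 0.05. Ndufaf4 had 82.1, 346.4, 267.4 and 174.2 normalized counts in ShHuR replicates 1 to 4, against 79.4, 177.2, 191.7 and 145.2 in ShCTR replicates 1 to 4. It was higher in ShHuR in all pairs, with a log2 fold change of 0.44 (adjusted p = 0.110, limma with the block). Ndufaf1 stood at 0.24, Ndufaf7 at −0.37 and Atp5s at −0.26.

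**Figure D3:**
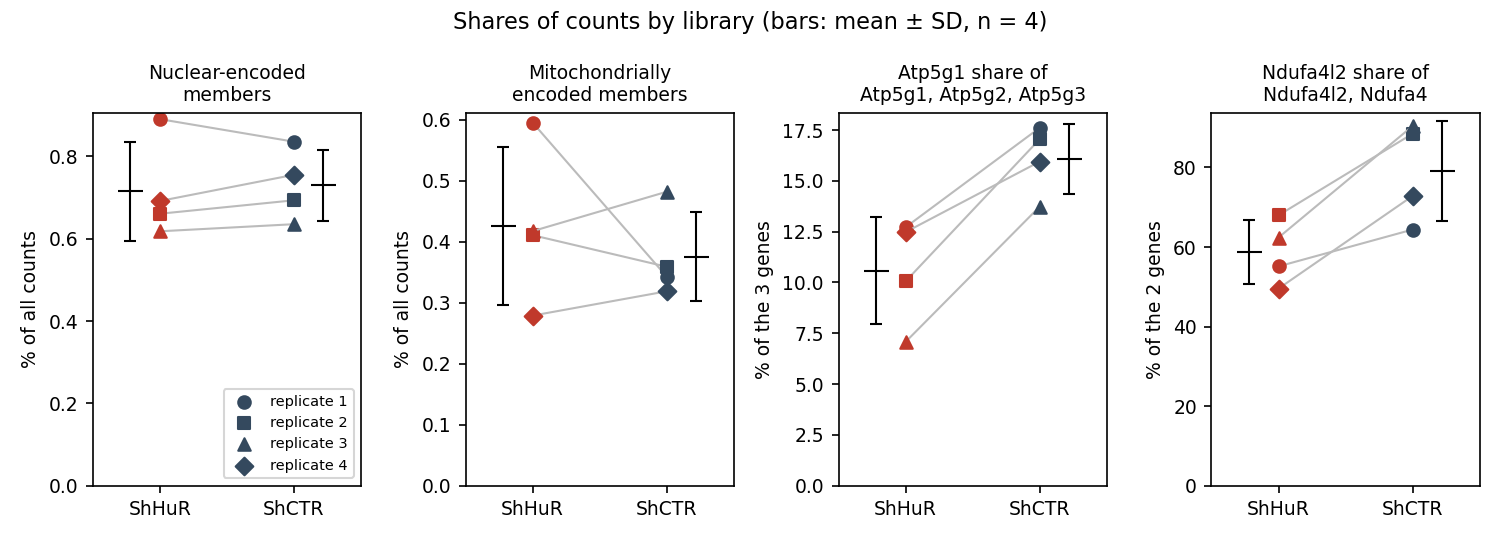
Shares of normalized counts by library, with lines joining same-numbered libraries and bars giving mean ± SD (n = 4). Nuclear-encoded and mitochondrially encoded shares overlap between groups, whereas the Atp5g1 share of the c-subunit genes and the Ndufa4l2 share of Ndufa4l2 plus Ndufa4 are lower in ShHuR in each pair.

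As shares of all normalized counts, the nuclear rows together held 0.891%, 0.661%, 0.618% and 0.692% in ShHuR replicates 1 to 4, against 0.836%, 0.693%, 0.635% and 0.755% in ShCTR replicates 1 to 4. The mean was 0.715 ± 0.121% in ShHuR and 0.730 ± 0.086% in ShCTR libraries (SD, n = 4 each), with an exact permutation p of 0.83, two-sided. An exact sign-flip test over the pairs gave p = 0.625, where 0.125 is the smallest that 4 pairs allow. The mitochondrially encoded rows held 0.595%, 0.411%, 0.418% and 0.279% in ShHuR replicates 1 to 4, against 0.343%, 0.359%, 0.482% and 0.319% in ShCTR replicates 1 to 4. Their mean was 0.426 ± 0.130% in ShHuR and 0.376 ± 0.073% in ShCTR libraries (exact permutation p = 0.543, two-sided, n = 4 each; exact sign-flip p = 0.75). Neither share differed between groups by more than the spread of the libraries. Without ShHuR replicate 1 the mitochondrial difference was −0.0066 percentage points, against 0.050 with all libraries. The widest 95% Wilson margins were 0.0071 and 0.0058 percentage points, for counting error only.

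The mitochondrially encoded rows varied more between libraries than the nuclear ones. Their median log2 range over the 8 libraries was 1.69, against 1.07 for nuclear members and 1.37 for all tested rows. Mt-co1, the catalytic subunit of complex IV, had 55013.9, 29366.4, 28397.9 and 18066.0 normalized counts in ShHuR replicates 1 to 4, against 31999.0, 27588.9, 39131.7 and 20351.3 in ShCTR replicates 1 to 4. It was higher in ShHuR in pairs 1 and 2 and lower in pairs 3 and 4, with a log2 fold change of 0.06 (SE 0.26). Mt-co1 held 87.0 ± 2.5% of the counts of these rows in ShHuR and 85.0 ± 4.6% in ShCTR libraries (exact permutation p = 0.543, two-sided, n = 4 each). That share was higher in ShHuR in each of the 4 pairs, by 0.461, 1.88, 0.417 and 5.24 percentage points, and the exact sign-flip test over pairs gave p = 0.125, the smallest it can give. Nuclear copies of mitochondrial DNA share its sequence, and the sources used here do not give how reads were assigned. Levels of these rows are therefore uncertain.

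Mt-co2, the copper-binding subunit, had 1378.2, 1574.5, 2012.8 and 1272.0 normalized counts in ShHuR replicates 1 to 4, against 819.1, 1966.8, 2533.8 and 1720.6 in ShCTR replicates 1 to 4. Mt-cox3, the remaining core subunit, had 1923.7, 641.3, 742.6 and 731.2, against 1191.8, 750.6, 1240.0 and 1082.5. Both were higher in ShHuR in pair 1 and lower in the other 3 pairs. Mt-atp6, the proton channel of the ATP synthase, followed the same order, with 1533.2, 400.9, 495.1 and 621.8 in ShHuR, against 911.6, 462.8, 787.1 and 933.8 in ShCTR replicates 1 to 4. The log2 fold changes were −0.08, −0.21 and −0.18 over all pairs. Without pair 1 they were −0.36, −0.51 and −0.49, and these 3 rows then fell, at adjusted p-values of 0.0499, 0.0259 and 0.0297 (limma with the block). That is 27.3% of the 11 rows tested. Without pair 1, 23.9% of all tested rows were called, 12.6% as falls and 11.3% as rises. Mt-atp8, which overlaps Mt-atp6 in mammalian mitochondrial DNA, stood at 0.10 over all pairs and −0.29 without pair 1.

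Cytochrome b (Mt-cyb), of complex III, had 665.5, 282.8, 224.6 and 205.6 normalized counts in ShHuR replicates 1 to 4, against 462.3, 246.0, 381.7 and 542.2 in ShCTR replicates 1 to 4. It was higher in ShHuR in pairs 1 and 2 and lower in pairs 3 and 4. Among the complex I subunits, Mt-nd1 stood at −0.08, Mt-nd2 at 0.02, Mt-nd3 at 0.07, Mt-nd5 at −0.34 and Mt-nd6 at −0.28, and their adjusted p ran between 0.349 and 0.980 (limma with the block). Mt-co2 and Mt-nd1 turned to 0.04 under rescaling by rows not encoded in mitochondria, Mt-nd2 to −0.03 under quantile normalization and Mt-nd3 to −0.07 in edgeR without the block. Mt-nd3 ran from 121.5 to 472.6 in ShHuR and from 79.4 to 483.3 in ShCTR libraries, with replicate 2 highest in both. Mt-nd6 is encoded on the strand opposite to the other genes named here. The sources used here do not give whether reads were counted by strand, and its 32.7 ± 14.5 normalized counts in ShHuR and 43.1 ± 29.6 in ShCTR libraries (SD, n = 4 each) are uncertain. Mt-nd4l had 4.1 to 9.1 in ShHuR and 6.6 to 15.5 in ShCTR libraries.

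**Figure D4:**
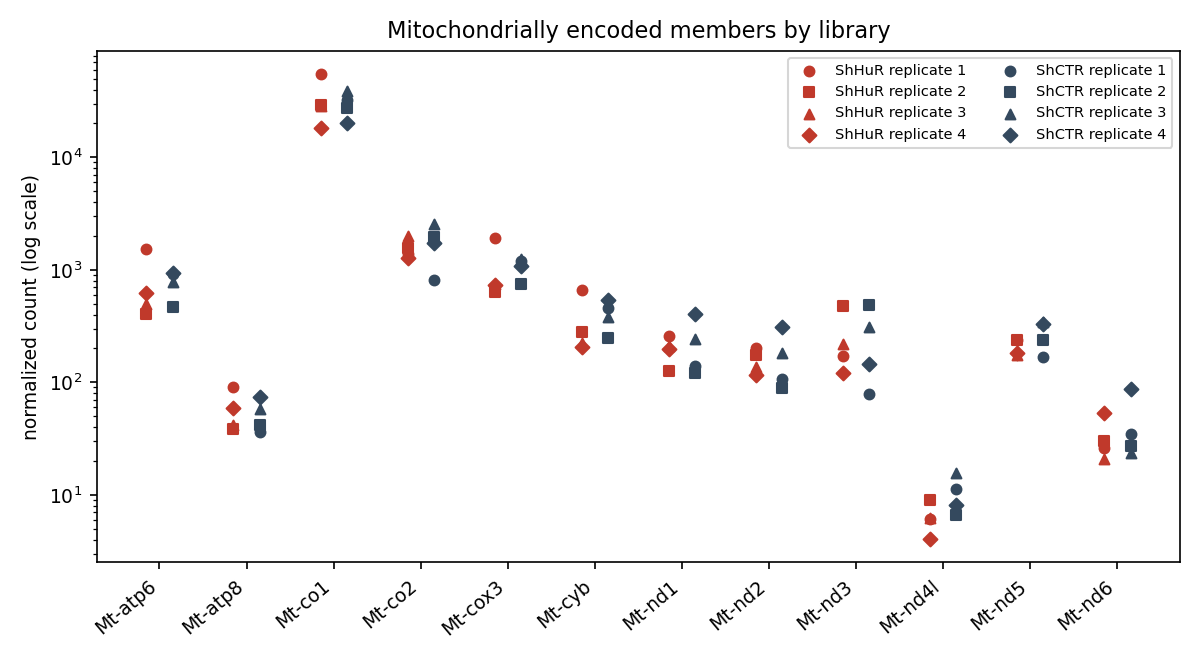
Normalized counts (log scale) of the 12 mitochondrially encoded rows in each library, ShHuR left and ShCTR right within each gene, with a marker shape per replicate number. The groups overlap for every row, and Mt-co1 lies far above the others.

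Pair 1 stood apart from the other pairs in these genes. Of 82 nuclear members, 78 were higher on average in the 2 pair 1 libraries than in the other 6, by a median of 0.66 on the log2 scale. Over all tested rows that median was 0.0044. Of the 11 mitochondrially encoded rows 5 were higher in pair 1. The ShHuR to ShCTR difference also differed by pair: the median log2 difference of nuclear members was 0.07, −0.19, −0.24 and −0.19 in pairs 1 to 4, against 0.04, 0.03, 0.0043 and −0.02 over all tested rows. For the mitochondrially encoded rows it was 0.75, −0.0012, −0.46 and −0.59. In pair 1, 1 of the 11 was below 0, and in pairs 3 and 4 all 11 were.

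Without pair 1, limma with the block called 14 nuclear members, 12 lower and 2 higher, against 12.6% of all tested rows lower and 11.3% higher. The median of nuclear members was then −0.24. The 5 genes above were among the 14. The other falls were those of Ndufv3, Ndufa6, Ndufv2, Ndufa2 and Ndufa7 in complex I, Uqcr10 and Uqcrq in complex III and Atp5o. Their log2 fold changes without pair 1 lay between −0.77 for Ndufv3 and −0.41 for Uqcrq. The other rise was that of Ndufaf4 at 0.57. Leaving out pair 2 or pair 4 called 0 nuclear members, and leaving out pair 3 called Ndufa4l2 and Cox5b. Whether pair 1 differs in culture, animal or handling is not stated, and its part in the results was not tested.

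**Figure D5:**
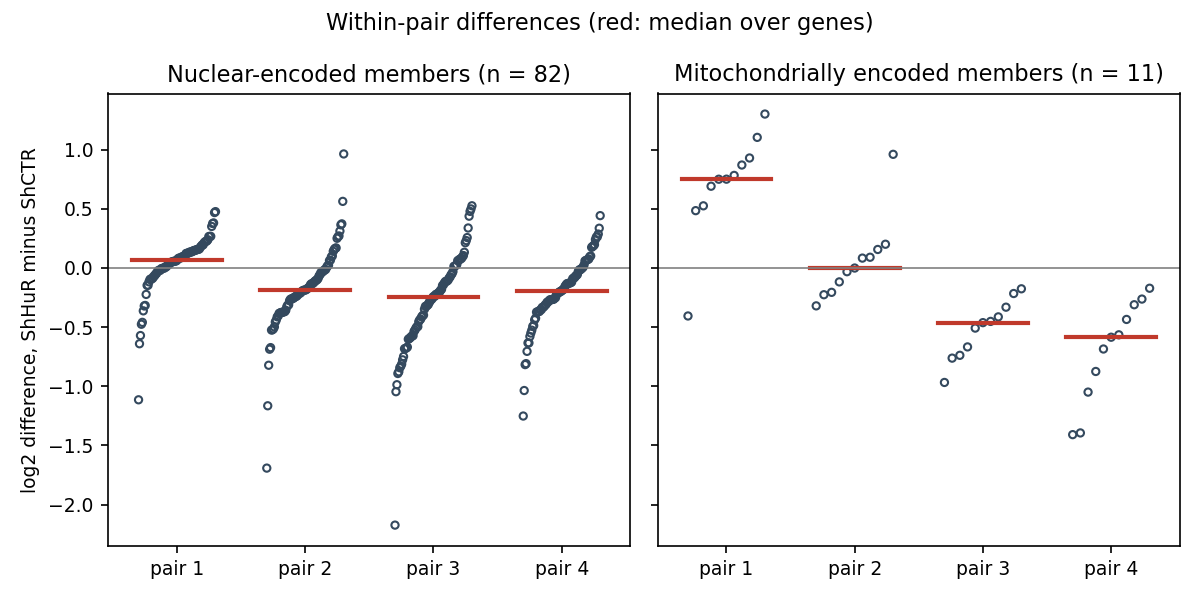
Log2 difference of ShHuR and ShCTR libraries with the same replicate number, for 82 nuclear (left) and 11 mitochondrially encoded (right) members, with red bars at the median. Nuclear medians lie between −0.24 and 0.07, and mitochondrial medians run from 0.75 in pair 1 to −0.59 in pair 4.

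Promoter sequence was read for members whose symbol or synonym is in the RefSeq tables of the GRCr8 assembly, 73 windows of 250 bases upstream of the start. The windows of the 2 genes with the lowest log2 fold changes and of the gene that rose are printed 5′ to 3′ in the sense of the gene, with motif matches in capitals, because they are the promoters of the calls the account turns on.
Ndufa4l2 (chr7:65241919-65242168, plus strand): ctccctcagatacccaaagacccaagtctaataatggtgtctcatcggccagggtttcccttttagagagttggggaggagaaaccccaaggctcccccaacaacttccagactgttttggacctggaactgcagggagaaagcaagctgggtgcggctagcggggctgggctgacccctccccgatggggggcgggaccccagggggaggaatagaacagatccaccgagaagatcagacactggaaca
Cox5b (chr9:46417587-46417836, plus strand): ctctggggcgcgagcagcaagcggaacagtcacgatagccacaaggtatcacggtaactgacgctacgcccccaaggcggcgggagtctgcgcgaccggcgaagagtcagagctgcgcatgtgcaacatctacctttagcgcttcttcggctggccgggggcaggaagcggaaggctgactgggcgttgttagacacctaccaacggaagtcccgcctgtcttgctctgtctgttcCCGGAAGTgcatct
Uqcrfs1 (chr17:34186352-34186601, plus strand): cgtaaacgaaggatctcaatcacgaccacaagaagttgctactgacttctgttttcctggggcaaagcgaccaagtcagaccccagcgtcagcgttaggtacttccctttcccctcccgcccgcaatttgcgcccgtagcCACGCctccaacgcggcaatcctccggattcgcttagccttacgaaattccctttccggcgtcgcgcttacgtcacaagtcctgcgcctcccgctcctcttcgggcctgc

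The capitals in Cox5b mark CCGGAAGT, the letters searched for the ETS family, to which GABPA belongs. Those in Uqcrfs1 mark GCGTG, a HIF core, on the reverse strand. The Ndufa4l2 window held none of the 5 motifs searched, which says only that these letters are not in this window. On either strand, CCGGAAGT stood in 7 of 73 member windows (9.59%), against 3.10% of 33469 windows of all genes. The HIF cores ACGTG and GCGTG stood in 24.7% and 43.8% of member windows, against 16.6% and 25.9% of all. AAGATGGCG, for YY1, stood in 1.37% against 0.693%. The windows of all genes were limited neither to 1 per gene nor to expressed genes, whereas members had 1 window per gene. A match is a description of the letters and not a binding site. The 5 motifs can overlap each other in a window.

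GCGCATGCG, the core bound by NRF1, a known activator of respiratory genes, stood on either strand in 9 member windows (12.3%), against 1.35% of all windows. This form was chosen after a longer form of the motif had been counted in the same windows, so the share is only a description. The windows of all genes were again limited neither to 1 per gene nor to expressed genes. The stretches around it are shown for the 2 lowest and the 2 highest log2 fold changes among the 9 genes. They are shown because Nrf1 itself rose with the block, as given further on. Whether NRF1 acts on these genes was not tested. Capitals mark every match, and overlapping matches on both strands join to 10 capitals.
Atp5o (chr11:44657524-44657552, minus strand): acgccgacgcGCGCATGCGCtctggcatc
Atp5i (chr14:1464774-1464802, plus strand): ttgcgctacgGCGCATGCGCtttcctggc
Atp5g2 (chr7:135678256-135678284, minus strand): ggctctagtcGCGCATGCGCagagccttc
Ndufaf4 (chr5:43401627-43401655, plus strand): gcagtagtccGCGCATGCGCccctgtgga
The log2 fold changes were −0.36 for Atp5o, −0.26 for Atp5i, 0.25 for Atp5g2 and 0.44 for Ndufaf4. The other 5 genes with the core were Atp5l, Cycs, Ndufa11, Ndufaf5 and Uqcrc1, between −0.19 and 0.17. None of the 9 passed the test in limma with the block, their adjusted p lay between 0.110 and 0.967, and both signs occurred among them.

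Among the regulators of mitochondrial biogenesis, 7 of 9 rows were tested, 3 rose and 0 fell, with a median log2 fold change of 0.30. Over all tested rows 7.16% rose and 8.05% fell, which is also the background for the lists that follow. In limma 0 of all tested rows passed without the block, and 0 passed with it when pair 4 was left out. Every rise and fall of this list and of those that follow was thus lost in both settings. Nrf1 had 343.4, 389.8, 465.8 and 365.6 normalized counts in ShHuR replicates 1 to 4, against 192.4, 266.5, 283.1 and 333.4 in ShCTR replicates 1 to 4. The groups do not overlap, and the log2 fold change was 0.56 (SE 0.14, adjusted p = 0.0354, limma with the block). Esrra, the oestrogen-related receptor that acts with the PGC-1 coactivators, averaged 1004 ± 215 normalized counts in ShHuR and 705.2 ± 199.6 in ShCTR libraries, a log2 fold change of 0.53. Yy1, a zinc-finger factor, rose by 0.41. Adjusted p in limma without the block was 0.521 for Nrf1, 0.629 for Esrra and 0.496 for Yy1. The other 4 did not pass, and all 7 stood above 0, the lowest at 0.13.

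Of 35 respiratory assembly factors that the symbol rule leaves out, 3 fell and 0 rose, with a median of −0.13. Cox11, a copper chaperone of complex IV, had 57.7, 65.6, 62.7 and 45.6 normalized counts in ShHuR replicates 1 to 4, against 90.6, 101.1, 115.0 and 111.1 in ShCTR replicates 1 to 4. The groups do not overlap, and the log2 fold change was −0.85. Coa5, another complex IV assembly factor, fell by 0.92, and Ttc19, a complex III factor, by 0.83 on the log2 scale. Adjusted p of the 3 in limma with the block lay under the threshold with the deposited scaling and when rescaled by rows not encoded in mitochondria.

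Of 28 genes of mitochondrial DNA and RNA handling, 1 rose and 1 fell, with a median of 0.22. Mterf1, which binds the mitochondrial rRNA termination site, averaged 91.4 ± 29.1 normalized counts in ShHuR and 59.1 ± 23.2 in ShCTR libraries, a log2 fold change of 0.66. Mterf2, of the same family, fell to 7.2 ± 2.8 in ShHuR, against 21.1 ± 8.6 in ShCTR libraries. Genes with a mitochondrial ribosomal protein symbol (Mrpl or Mrps) were taken by symbol alone, without a check of function. Of these 73, 1 rose (Mrpl44, 0.39) and 2 fell (Mrps36 and Mrpl41, both −0.49), with a median of 0.0063. Rescaling by rows not encoded in mitochondria ended both of these falls, with an adjusted p of 0.0836 and 0.0846. With the block the rise of Mrpl44 did not pass in edgeR or DESeq2, with adjusted p of 0.0509 and 0.0526. Leaving out pair 1 ended the rises of Mrpl44 and Mterf1 in limma, with adjusted p of 0.0617 and 0.0572.

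Of 22 genes of the tricarboxylic acid cycle and pyruvate dehydrogenase, 3 fell and 1 rose, with a median of −0.22. Suclg2, a succinyl-CoA ligase subunit, had 422.4, 461.5, 532.7 and 444.6 normalized counts in ShHuR replicates 1 to 4, against 799.5, 846.5, 682.1 and 736.6 in ShCTR replicates 1 to 4, without overlap. Its log2 fold change was −0.72. Cs, citrate synthase, fell by 0.50 and Fh, fumarate hydratase, by 0.42 on the log2 scale, and both falls were lost under rescaling by rows not encoded in mitochondria, with adjusted p of 0.0551 and 0.0944. Idh2, the NADP-dependent isocitrate dehydrogenase, rose by 0.54. Among 18 carriers, porins and coenzyme Q genes, 1 fell and 2 rose. Coq3, a methyltransferase of coenzyme Q synthesis, averaged 77.5 ± 15.2 normalized counts in ShHuR and 161.0 ± 9.3 in ShCTR libraries, a log2 fold change of −1.07. Adck3 and Adck4, kinase-like proteins of the same route, rose by 1.04 and 0.83.

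Of 8 hypoxia-linked mitochondrial genes 2 fell and 0 rose. Cisd1, an iron-sulphur protein of the outer membrane, had 556.1, 111.1, 97.1 and 246.1 normalized counts in ShHuR replicates 1 to 4, against 1542.0, 650.2, 683.0 and 1021.6 in ShCTR replicates 1 to 4. The groups do not overlap, and the log2 fold change was −2.21. Higd1a, a HIF-1 target that binds complex IV, fell by 0.70 on the log2 scale, with an adjusted p from limma with the block of 0.0395, and of 0.0508 when rescaled by rows not encoded in mitochondria.

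Markers of fibroblasts and annulus fibrosus were mostly lower in ShHuR, and those of the nucleus pulposus lay on both sides of 0. Of 13 tested nucleus pulposus markers 4 fell and 0 rose (Acan −1.69, Sox6 −1.09, Car12 −1.03 and Ncam1 −0.62), or 30.8% called, against 15.2% of all tested rows. Of the other 9, 4 were below 0 and 5 above it, with Cd24 at 1.03, Sox5 at 0.63, Slc2a1 at 0.58 and Cdh2 at 0.55, and the median of the 13 was −0.20. Without pair 1, 4 fell and 3 of those above 0 passed (Sox5, Slc2a1 and Cdh2). Of 11 fibroblast and annulus fibrosus markers 6 fell and 0 rose (54.5% called), with a median of −0.76, led by Col1a1 at −2.35 and Col3a1 at −2.01. Their summed level was 17984 to 93462 normalized counts in ShHuR and 56437 to 146346 in ShCTR libraries. Of 3 leukocyte and macrophage markers 0 passed, and their sum was 563.0 to 1290 normalized counts in ShHuR and 333.9 to 992.8 in ShCTR libraries. The endothelial marker Tek had at most 14.6. Of 2 tested skeletal muscle markers 0 passed, with sums over 3 rows of 151.9 to 1477 normalized counts in ShHuR and 286.8 to 1101 in ShCTR libraries, mostly Des. The sum of the nucleus pulposus markers was 6765 to 34008 normalized counts in ShHuR and 6505 to 34443 in ShCTR libraries, mostly Slc2a1. The part of these differences in the values of the respiratory genes was not tested.

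The authors' deposited table of the same comparison calls 6 of the members, 5 lower and 1 higher: the 5 genes called here and Ndufa6. Its log2 fold changes are −1.21 for Ndufa4l2, −0.72 for Cox5b, −0.52 for Atp5g1, −0.45 for Ndufa6, −0.44 for Ndufs1 and 0.42 for Uqcrfs1. These come from the same libraries and are no separate evidence.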

How the data were processed

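Total RNA of 8 libraries, 4 ShHuR and 4 ShCTR, was depleted of cytoplasmic and mitochondrial rRNA and sequenced, per the labels' protocols. The authors deposited a normalized signal per gene and library: each library's counts over a single factor, judging by the file headers and the values. In each library 100% of values were whole multiples of 1 step within 0.01 read, so reads could be recovered. The authors also deposited log2 fold changes, their standard errors, a test statistic (a score without a fixed range) and p-values, raw and adjusted. The aligner, counter, genome build and annotation: not given in the sources used here. In the sheet of all genes the identifiers are out of register with the symbols, so rows were matched by symbol and identifiers were taken from the sheet of called genes.

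Values were analysed as log2(value + 1). Rows with at least 10 in at least 4 of 8 libraries were tested (11847 tested, 1689 not) two-sided in R 4.3.3 by limma 3.58.1 with a mean-variance trend, at a Benjamini-Hochberg adjusted p of 0.05. The fit without a block is the main one. Both groups carry replicate numbers 1 to 4, and same-numbered libraries deviated from their group means together, with correlations across genes of 0.87, 0.78, 0.63 and 0.77. ShHuR replicate 2 also correlated with ShCTR replicate 3 at 0.62, and ShHuR replicate 3 with ShCTR replicate 2 at 0.43. The correlations thus tell replicates 2 and 3 apart poorly. Same-numbered libraries were taken as pairs, although no label explains the numbers. Counts of calls are given from both fits, and single-gene values come from the fit blocked on replicate number. Within groups no libraries agreed within sampling noise (chi-square per degree of freedom 43.5 to 188.5). The fits were tested on simulated data in which same-numbered libraries were given shared means. Pairing was thus built in, so the simulation cannot show whether the numbers mark pairs. Alternatives were edgeR 4.0.16 and DESeq2 1.42.0 on recovered reads, other pseudocounts, scalings and filters, and leaving out each library or pair.

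The text names every mitochondrially encoded row, every nuclear member called with the block, the 2 highest and 2 lowest of each complex, isoforms fixed by name (3 of them outside the symbol pattern), and up to 2 rises and 2 falls of each other list. A result that this rule selects is not reported here. Genes named beyond this were chosen after their values were seen. The members and lists were chosen with earlier results of these data known. Of the 97 rows, 85 matched a RefSeq symbol or synonym (GRCr8).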

Additional observations from a re-analysis of the deposited data

Results flagged for a closer look

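In 15 of the 100 sets of 4 libraries examined, 1 library lay far from the other 3, by Dixon's ratio of its gap to the whole range at the 95% level. Chance alone flags about 1 in 20 such sets. In all 15 the distant library was replicate 1, in 9 sets that of ShHuR and in 6 that of ShCTR. For ShHuR the ratios were 0.951 for Atp5g2, 0.857 for the first Cox6b1 row, 0.907 for Cox7a2l, 0.902 for Cox8a, 0.921 for Mt-cox3, 0.832 for Mt-cyb, 0.841 for Ndufaf1, 0.832 for Sdha and 0.896 for Uqcr10. For ShCTR they were 0.879 for Atp5g3, 0.842 for Cox5b, 0.894 for the first Cox6b1 row, 0.976 for Cox6b2, 0.888 for Cox7a2l and 0.854 for Uqcr10. Replicate 1 was the highest library in each of these sets except that of Ndufaf1, a complex I assembly factor, where it was the lowest. In Cox7a2l it had 5039 normalized counts in ShHuR and 4591 in ShCTR libraries, while the other libraries ran from 1526 to 1852 in ShHuR and from 1857 to 2163 in ShCTR. The genes share libraries, so these sets are not independent.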

How the results depend on the processing

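Without the block limma and edgeR called 0 genes (978 and 1010 at an unadjusted p under 0.05), and DESeq2 called 248. With the replicate block 1802 passed in limma, 1845 in edgeR and 2053 in DESeq2, 1831 with a pseudocount of 5, 1770 without the filter, 2040 when scaled by rows not encoded in mitochondria, 1648 after quantile normalization and 573 without a variance trend. Nuclear members called were 0 without the block and 2 in DESeq2. With the replicate block they were 5 in limma and edgeR, 6 in DESeq2, 5 under each other scaling, pseudocount and filter, and 1, Cox5b, without a variance trend. The same number does not mean the same genes. When scaled by rows not encoded in mitochondria, the 5 were 2 rises and 3 falls, without Ndufs1 and with Sdhd. Leaving out 1 library, without the block, gave 0 to 105 calls over all genes and 0 to 1 nuclear. Leaving out pairs 1 to 4 with the block gave 2831, 62, 523 and 0 calls over all genes, 14, 0, 2 and 0 nuclear, and 3, 0, 0 and 0 mitochondrially encoded. Over all these, the nuclear median ranged from −0.35 to −0.022 and the mitochondrially encoded one from −0.36 to 0.039. Differences in share ranged from −0.0066 to 0.099 percentage points for mitochondrially encoded rows and from −0.073 to 0.021 for nuclear ones.

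Of 42 named members tested, 17 changed sign under at least 1 of 25 alternatives, and none of these was called with all libraries in. With the replicate block the changed values were as follows. Scaled by rows not encoded in mitochondria, Cox6a1 stood at 0.0076, Mt-co2 at 0.039, Mt-nd1 at 0.045, Sdhb at 0.00092 and Sdhc at 0.028. After quantile normalization, Cox7c stood at −0.0029 and Mt-nd2 at −0.025. In edgeR, Mt-nd2 stood at −0.020. Without pair 1, Mt-atp8 stood at −0.29, Mt-co1 at −0.18, Mt-nd2 at −0.29 and Mt-nd3 at −0.27. Without pair 2, Mt-nd2 stood at −0.30. Without pair 4, Cox7c stood at −0.023, Mt-co2 at 0.032, Mt-nd1 at 0.25 and Ndufs7 at −0.041. Without the block edgeR gave −0.14 for Mt-nd2 and −0.074 for Mt-nd3 and DESeq2 gave −0.12 for Mt-nd2 and −0.047 for Mt-nd3. Leaving out 1 library gave ranges of −0.38 to 0.080 for Cox6a1, −0.73 to 0.19 for Cox6a2, −0.58 to 0.12 for Cox7a2l, −0.14 to 0.20 for Cox7c, −0.58 to 0.061 for Mt-atp6, −0.14 to 0.29 for Mt-atp8, −0.23 to 0.31 for Mt-co1, −0.41 to 0.13 for Mt-co2, −0.33 to 0.26 for Mt-nd1, −0.24 to 0.35 for Mt-nd2, −0.38 to 0.49 for Mt-nd3, −0.54 to 0.12 for Mt-nd6, −0.048 to 0.60 for Ndufaf1, −0.11 to 0.29 for Ndufs7, −0.31 to 0.0022 for Sdha, −0.34 to 0.027 for Sdhb and −0.26 to 0.012 for Sdhc. The causes were not tested. The mitochondrial share without rRNA rows was not run, since the rows used hold none. ShHuR libraries were shallower, which limits low rows such as Cox6b2 and Mt-nd4l.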
